A study of Mus musculus with 18 samples.

Results

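Meox2, Meox1, Tbx22, Barx1, Hic1 and Mn1 are 6 transcriptional regulators linked to the mesenchyme of the developing palate, and they are followed here across 18 whole-genome arrays. They were chosen by name, and every probe set whose platform annotation gave 1 symbol equal to 1 of these names was taken, which gave 7 probe sets for the 6 genes among 18193 genes measured. Tissue came from C57BL/6J mouse embryos at embryonic day 15.5 and fell into 3 groups of 6 arrays. The mutant posterior group held posterior palate of K14-Cre;Tgfbr2 fl/fl embryos. The control posterior and control anterior groups held the posterior and anterior palate of embryos with the same floxed allele and no Cre. All 18 arrays therefore carry the floxed receptor allele, and only the mutants delete it, in cells where the keratin 14 promoter has been active. That promoter works in epithelium, so the mesenchyme in which these regulators are known to act keeps the receptor gene. The study asked how loss of this TGF-beta receptor in palatal epithelium affects its interaction with muscle fibres. Mutants and controls came from separate litters, so litter and genotype cannot be told apart. Sex was not determined, and the labels do not say whether a sample was 1 embryo or a pool. P-values therefore measure the spread between these samples.

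The palatal shelves grow from the maxillary processes as mesenchyme covered by a thin epithelium, then lift, meet and fuse, and their front and back follow separate programs. The front, which becomes bony palate, is known for Shox2 and Msx1, whereas the back, which forms the soft palate and receives migrating muscle precursors, is known for Meox2, Tbx22, Barx1 and Mn1. Meox2 is a homeobox factor, and mice without it can develop cleft palate. Meox1 is its paralogue and acts with it in somites. Tbx22 is a T-box repressor whose loss causes X-linked cleft palate with ankyloglossia in humans. Barx1 is a homeobox factor of posterior palate, molar and stomach mesenchyme. Hic1 is a zinc finger repressor that marks quiescent mesenchymal cells in muscle and other organs. Mn1 is a transcriptional cofactor that is needed for Tbx22 expression in the posterior palate of mice.

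In the GRCm38.p6 assembly as annotated by RefSeq, Mn1 lies at chr5:111417300-111457030, Hic1 at chr11:75161377-75170255 and Meox1 at chr11:101877510-101894354. Meox2 lies at chr12:37108540-37179534, Barx1 at chr13:48663036-48666507 and Tbx22 at chrX:107667964-107688980. RefSeq promoter windows of 300 bases, with 250 before and 50 from the gene start onwards, were matched for 4 of the 6 genes, namely Meox2, Tbx22, Barx1 and Hic1. Those of Meox2 and Tbx22 are printed because both genes were lower in mutant arrays 1 to 3 than in mutant arrays 4 to 6. Mn1 was lower too, but no window was matched for it, and a relation between these genes was not tested. The Barx1 window is printed because its base composition is unlike that of Meox2 and Tbx22. Each window is written 5′ to 3′ on the strand of the gene, and capitals mark a match to a searched motif other than the short E-box CANNTG.
Meox2, chr12:37108290-37108589, plus strand: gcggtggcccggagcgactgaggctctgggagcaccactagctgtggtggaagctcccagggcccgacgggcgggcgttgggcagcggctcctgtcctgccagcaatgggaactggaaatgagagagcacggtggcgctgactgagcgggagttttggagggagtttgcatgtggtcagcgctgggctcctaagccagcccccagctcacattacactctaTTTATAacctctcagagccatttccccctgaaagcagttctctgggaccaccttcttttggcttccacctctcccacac
Tbx22, chrX:107667714-107668013, plus strand: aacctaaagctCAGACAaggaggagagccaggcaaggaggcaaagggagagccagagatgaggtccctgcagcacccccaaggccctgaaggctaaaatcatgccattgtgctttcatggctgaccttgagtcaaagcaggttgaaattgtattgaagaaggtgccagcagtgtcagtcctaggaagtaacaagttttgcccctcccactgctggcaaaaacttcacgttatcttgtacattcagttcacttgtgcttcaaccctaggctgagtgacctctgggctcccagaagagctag
Barx1, chr13:48662786-48663085, plus strand: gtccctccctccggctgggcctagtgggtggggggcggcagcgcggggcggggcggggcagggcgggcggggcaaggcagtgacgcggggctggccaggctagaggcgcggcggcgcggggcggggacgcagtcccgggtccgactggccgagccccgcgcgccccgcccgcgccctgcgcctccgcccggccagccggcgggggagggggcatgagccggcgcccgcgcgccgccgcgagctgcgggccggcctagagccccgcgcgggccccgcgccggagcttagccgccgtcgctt

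These windows were searched on both strands for TAATTA, a homeodomain core, AGGTGTGA, a T-box site, CAGACA, a SMAD element, TATAAA, the TATA box, and the E-boxes CACGTG and CANNTG, of which the second includes the first. Over all 19827 promoter windows of the same length the shares with a match were 6.1% for TAATTA, 1.35% for AGGTGTGA, 22.1% for CAGACA, 16.3% for TATAAA, 6.73% for CACGTG and 74.3% for CANNTG. The Meox2 window held 1 TATAAA, on the minus strand and read as TTTATA on the printed strand, whose first printed base lies at -29 from the start, and 1 CANNTG at -82. The Tbx22 window held 1 CAGACA at -239 and 1 CANNTG at -3. No searched motif was in the Barx1 or Hic1 window. G and C made up 84.7% of the Barx1 window with 50 CpG dinucleotides, 64.7% of the Hic1 window with 20, 60.7% of the Meox2 window with 12 and 50.7% of the Tbx22 window with 1. The medians over all windows were 50.7% and 5.

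Values are log2 expression as deposited, after background correction, quantile normalisation and summary per probe set by RMA, so that a difference of 1 is a 2-fold change. Array means lay between 6.35 and 6.37 in mutant arrays 1 to 3 and between 6.26 and 6.28 in all other arrays. The cause of that gap was not tested, and the number of arrays limits the precision. The brightest probe set stood for each gene, and levels of different probe sets are not compared. The brightest probe set of Tgfbr2 averaged 11.01 ± 0.27 in mutant posterior and 10.46 ± 0.20 in control posterior arrays (SD, n = 6 each), higher by 0.55 in the mutants (limma, adjusted p = 0.00879), and its other probe sets were not called when every probe set was tested (0.24, adjusted p = 0.131, and -0.10, adjusted p = 0.503, limma). Because only epithelial cells lose the gene and no source used here says whether the probes lie in the deleted exon, these values check nothing about the labels. Hybridisation spike-ins, added in equal amount to each sample, separated arrays 1 to 3 from arrays 4 to 6 in each group, at 11.4 to 11.9 against 10.7 to 10.8 in the mutants, 10.5 to 10.6 against 10.9 in control posterior arrays and 10.5 to 10.6 against 10.9 to 11.1 in control anterior arrays. Labelling spike-ins ran from 6.79 to 8.28 in the 6 mutant arrays and from 8.75 to 10.5 in the 12 control arrays. Mutant array 1 stood apart with an epithelial marker mean of 9.17, against 11.0 to 11.8 in the other mutant arrays, and control anterior array 2 with a cartilage marker mean of 9.55, against 6.79 to 7.69 in the other control anterior arrays.

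The first comparison asked how the regulators differ between posterior and anterior palate of controls. Meox2 was 7.40-fold higher in control posterior palate, Tbx22 3.79-fold and Hic1 1.61-fold. These 3 of the 6 genes passed an adjusted p of 0.05 in limma, all higher. Of all 18193 genes 3.82% passed, 1.7% of all genes higher and 2.12% of all genes lower. Barx1, Meox1 and Mn1 did not pass. In whole tissue, fewer cells of a type and less RNA per cell cannot be told apart.

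Meox2 ran from 10.8 to 11.2 with a median of 11.0 in control posterior arrays, against 7.78 to 8.66 with a median of 8.03 in control anterior arrays. The lowest posterior array lay more than 2 log2 units above the highest anterior one. The difference was 2.89 (SE 0.35, 95% interval 2.15 to 3.62, limma adjusted p = 8.67e-05). The other Meox2 probe set gave 2.82 (SE 0.28, limma adjusted p = 2.4e-05 over 45037 probe sets, of which 1.86% passed), with control posterior values of 9.11 to 9.48 and control anterior values of 6.22 to 6.65. Meox2 was called under each of 31 other settings, with differences between 2.77 and 3.00.

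Tbx22 ran from 8.63 to 9.43 with a median of 8.91 in control posterior arrays, against 6.30 to 8.49 with a median of 6.56 in control anterior arrays. The groups did not overlap, which held for 2.65% of all genes with posterior higher and 6.32% in either direction, but control anterior arrays 2 and 3 read 8.49 and 7.88 while the other 4 read 6.30 to 6.60. The difference was 1.92 (SE 0.53, 95% interval 0.82 to 3.03, limma adjusted p = 0.0489). That call was lost in 19 of 31 other settings, among them 14 of the 18 fits that left out 1 array. The highest adjusted p of these fits was 0.106 in limma, without control anterior array 4. The call held with the 2 control groups alone (SE 0.34, limma adjusted p = 0.00319). It also held with the replicate number as a block (limma adjusted p = 0.00503) and with the spike-in set as a block (adjusted p = 0.00185). With control arrays 1 to 3 only the call was lost (1.28, limma adjusted p = 0.173). With control arrays 4 to 6 only the difference was 2.57 (limma adjusted p = 0.00728). The difference between these effects, -1.30 (SE 0.82), had an adjusted p of 1 in limma, where 0% of genes passed.

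Hic1 ran from 8.31 to 8.95 with a median of 8.61 in control posterior arrays, against 7.68 to 8.27 with a median of 7.89 in control anterior arrays. The ranges lay close together without overlap. The difference was 0.69 (SE 0.16, 95% interval 0.36 to 1.02, limma adjusted p = 0.0173). It was lost without control posterior array 6 (0.63, adjusted p = 0.0514), with control arrays 4 to 6 only (0.68, adjusted p = 0.14) and when each array was set relative to its mesenchyme marker mean (0.57, adjusted p = 0.569).

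Barx1 ran from 10.2 to 10.7 with a median of 10.6 in control posterior arrays, against 9.32 to 10.2 with a median of 9.74 in control anterior arrays. Only control anterior array 6, at 10.24, reached the lowest posterior array. The difference of 0.77 (SE 0.21, 95% interval 0.33 to 1.22) missed the threshold by a small margin (limma adjusted p = 0.0501). It passed in 10 of 31 other settings, among them the 12 control arrays alone (adjusted p = 0.00326) and control arrays 1 to 3 alone (0.89, adjusted p = 0.00696).

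Meox1 ran from 6.87 to 7.55 with a median of 7.28 in control posterior arrays, against 6.46 to 7.06 with a median of 6.90 in control anterior arrays. The ranges overlapped, and the difference of 0.42 (SE 0.22, 95% interval -0.05 to 0.88) was not called (limma adjusted p = 0.305). Mn1 ran from 9.50 to 10.1 with a median of 9.83 in control posterior arrays, against 9.08 to 10.2 with a median of 9.68 in control anterior arrays. Its difference was 0.09 (SE 0.21, 95% interval -0.36 to 0.54, limma adjusted p = 0.86), so at this age no posterior excess of Mn1 was detectable, and an excess above 0.54 lies outside the interval.

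Control arrays with equal numbers deviated together, and with the replicate number as a block 5 of the 6 genes were called for region, where 17.3% of all genes were called. Barx1 (limma adjusted p = 0.00141) and Meox1 (adjusted p = 0.00892) joined the 3 genes above, and Mn1 stayed out (adjusted p = 0.673). With the spike-in set as a block in the control arrays the same 5 genes were called, where 17.1% of all genes were, Barx1 at an adjusted p of 0.00376 and Meox1 at 0.0462 in limma.

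**Figure D1:**
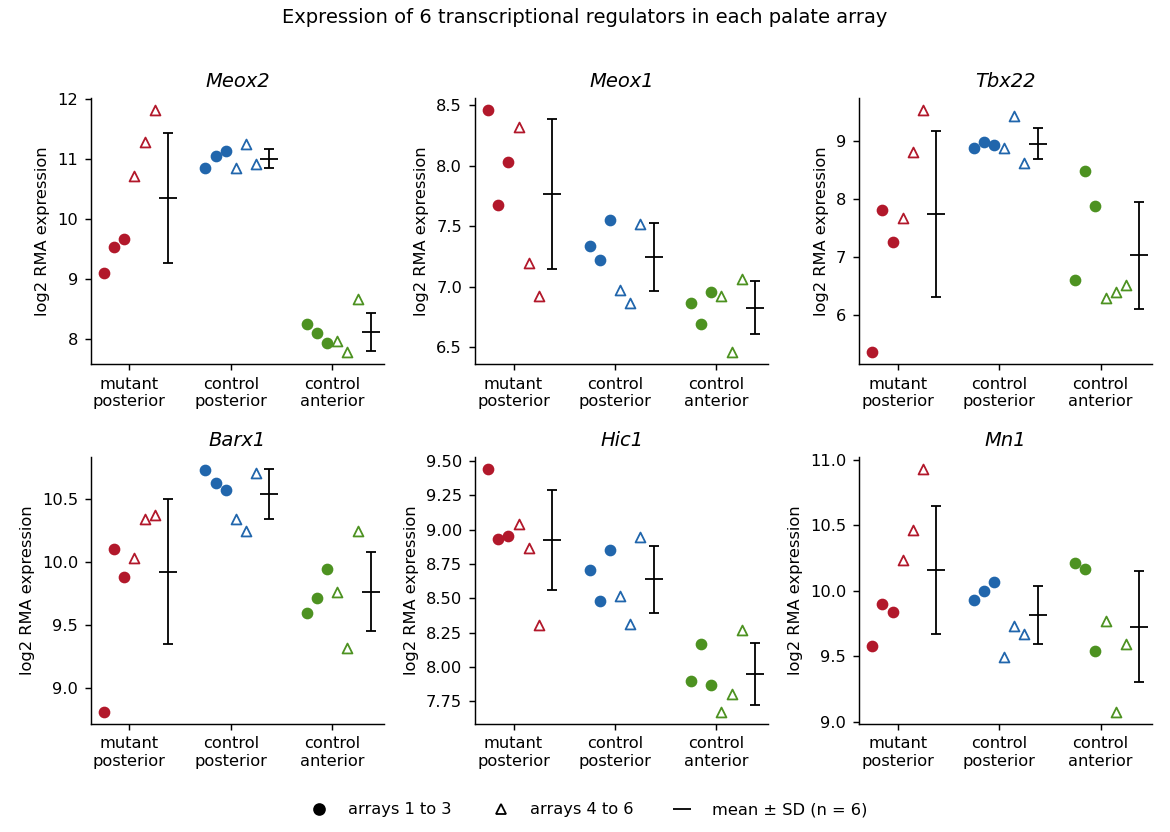
Each panel plots 1 gene, with log2 RMA expression of its brightest probe set on the vertical axis and the 3 groups on the horizontal axis; filled circles are arrays 1 to 3, open triangles are arrays 4 to 6, and bars are mean ± SD (n = 6). Control posterior Meox2 sits between 10.8 and 11.2, above all control anterior arrays, while mutant posterior Meox2 spreads from 9.10 to 11.8.

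The second comparison asked how the regulators differ between mutant and control posterior palate. None of the 6 genes passed an adjusted p of 0.05 in limma, where 13.5% of all genes passed, 7.73% higher and 5.73% lower. Meox2, Tbx22 and Barx1 had lower means in the mutants, and Meox1, Hic1 and Mn1 had higher ones. At an unadjusted p under 0.05, Barx1 (0.0101), Meox1 (0.0297) and Tbx22 (0.034) passed in limma. The share of all genes under that unadjusted threshold was not counted. It is at least 13.5%, because every gene that passed after adjustment also passes before it. Whether these regulators passed more often than all genes was therefore not tested. Values spread more widely among the mutants. The SD over mutant arrays was 1.08 for Meox2 and 1.43 for Tbx22, against 0.16 and 0.26 over control posterior arrays, where the median SD over all genes was 0.233 in mutant and 0.128 in control posterior arrays.

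Mutant Meox2 read 9.10, 9.53, 9.66, 10.72, 11.27 and 11.82 in arrays 1 to 6, against 10.85, 11.04, 11.13, 10.85, 11.24 and 10.92 in control posterior arrays 1 to 6. Mutant arrays 1 to 3 lay below every control posterior array, array 4 was also below them, and arrays 5 and 6 were above them. The mean difference of -0.65 (SE 0.35, 95% interval -1.39 to 0.08) was not called (limma adjusted p = 0.233). The other probe set ran in the same order over the mutant arrays, from 7.88 to 10.13, and differed by -0.36 (limma adjusted p = 0.455 over all probe sets, of which 10.7% passed).

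Mutant Tbx22 read 5.37, 7.81, 7.27, 7.68, 8.82 and 9.54 in arrays 1 to 6, against 8.88, 8.99, 8.93, 8.88, 9.43 and 8.63 in control posterior arrays 1 to 6. Mutant array 1 lay below every control array of either region, and array 6 lay above all of them. The difference was -1.21 (SE 0.53, 95% interval -2.31 to -0.10, limma adjusted p = 0.139). Mutant Barx1 ran from 8.81 to 10.4 with a median of 10.1, against 10.2 to 10.7 with a median of 10.6 in control posterior arrays. Mutant array 1 was the lowest of all 18 arrays for this gene, and arrays 5 and 6 fell within the control posterior range. Its difference was -0.61 (SE 0.21, 95% interval -1.06 to -0.16, limma adjusted p = 0.0643).

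Mutant Meox1 ran from 6.92 to 8.46 with a median of 7.85, against 6.87 to 7.55 with a median of 7.28 in control posterior arrays. Mutant arrays 1 to 4 lay above every control posterior array, and arrays 5 and 6 lay within their range. The difference was 0.52 (SE 0.22, 95% interval 0.06 to 0.99, limma adjusted p = 0.128). Mutant Hic1 ran from 8.30 to 9.44 with a median of 8.94, against 8.31 to 8.95 with a median of 8.61 in control posterior arrays, and the difference was 0.29 (SE 0.16, 95% interval -0.04 to 0.61, limma adjusted p = 0.245). Mutant Mn1 ran from 9.58 to 10.9 with a median of 10.1, against 9.50 to 10.1 with a median of 9.83 in control posterior arrays, and the difference was 0.34 (SE 0.21, 95% interval -0.11 to 0.79, limma adjusted p = 0.313). The mutant and control posterior ranges of all 6 genes overlapped, where 6.55% of all genes had ranges that did not meet, 3.52% with the mutants higher.

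The calls for genotype turned on mutant array 6. Without it 5 of the 6 genes were called in limma, where 15% of all genes were, Meox2 at -0.95 (adjusted p = 0.0381), Tbx22 at -1.57 (adjusted p = 0.0396), Barx1 at -0.70 (adjusted p = 0.0388), Meox1 at 0.69 (adjusted p = 0.0259) and Hic1 at 0.41 (adjusted p = 0.0499). Without mutant array 5 Barx1 alone of the 6 was called (-0.70, limma adjusted p = 0.0431), where 14.1% of all genes were. Leaving out any other single array gave 0 calls among the 6 genes.

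**Figure D2:**
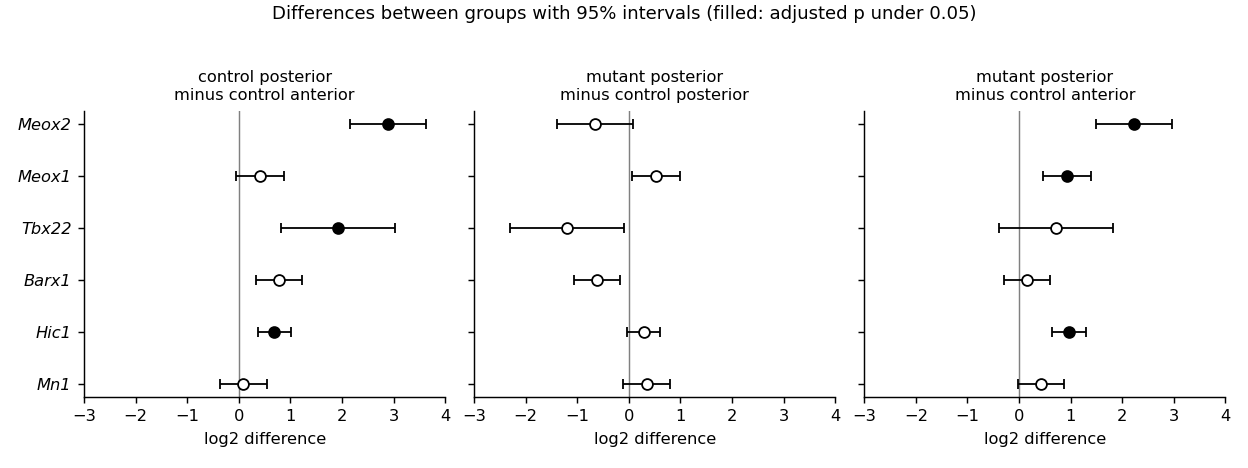
Points are log2 differences of the 6 genes for control posterior minus control anterior, mutant posterior minus control posterior and mutant posterior minus control anterior, with 95% intervals from limma over 18 arrays; filled points passed an adjusted p of 0.05. No gene is filled in the middle panel, where Meox2, Tbx22 and Barx1 lie left of 0.

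The third comparison set mutant posterior palate against control anterior palate, 2 groups that differ in both region and genotype. It shares the mutant arrays with the genotype comparison and the anterior arrays with the region comparison, so it is not independent of them. Meox2 was 4.70-fold higher, Hic1 1.96-fold and Meox1 1.92-fold, and these 3 genes passed, all higher. Of all genes 27.2% passed, 13.9% of all genes higher and 13.3% of all genes lower. Tbx22, Barx1 and Mn1 did not pass.

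Each mutant array read higher than every control anterior array for Meox2, at 9.10 or more in the mutants against 8.66 or less, and for Hic1, at 8.30 or more against 8.27 or less. Such ranges that did not meet were found for 9.83% of all genes, 4.98% with the mutants higher. The Meox2 difference was 2.23 (SE 0.35, limma adjusted p = 0.00021), with 2.47 on its other probe set (adjusted p = 1.08e-05 over all probe sets, of which 22.5% passed), and the Hic1 difference 0.97 (SE 0.16, limma adjusted p = 0.000253). Meox1 overlapped and differed by 0.94 (SE 0.22, limma adjusted p = 0.00494).

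Tbx22 averaged 7.75 ± 1.43 in mutant posterior and 7.03 ± 0.92 in control anterior arrays (SD, n = 6 each), a difference of 0.72 (SE 0.53, 95% interval -0.39 to 1.82, limma adjusted p = 0.326). It passed without mutant array 1 (1.19, limma adjusted p = 0.0467) and without both mutant array 1 and control anterior array 2, a setting chosen after seeing the data (1.48, limma adjusted p = 0.00926). Barx1 averaged 9.92 ± 0.58 in mutant posterior and 9.76 ± 0.31 in control anterior arrays, a difference of 0.16 (SE 0.21, 95% interval -0.29 to 0.61, limma adjusted p = 0.599). Mn1 averaged 10.16 ± 0.49 in mutant posterior and 9.73 ± 0.43 in control anterior arrays, a difference of 0.43 (SE 0.21, 95% interval -0.02 to 0.88, limma adjusted p = 0.139).

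The order of the group means was thus control posterior, mutant posterior and control anterior for Meox2, Tbx22 and Barx1, and mutant posterior, control posterior and control anterior for Meox1, Hic1 and Mn1. In the first order the mutant and control posterior groups were not separated for any of the 3 genes, and for Tbx22 and Barx1 neither were the mutant posterior and control anterior groups. In the second order neither neighbouring pair was separated for Meox1 or Mn1, and for Hic1 only the lower pair was.

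Within the mutants, arrays 1 to 3 and 4 to 6, the sets given by the hybridisation spike-ins, differed in 3 of the 6 genes, all lower in arrays 1 to 3, where 22.8% of all genes passed and 8.51% were lower. Meox2 averaged 9.43 in arrays 1 to 3 and 11.27 in arrays 4 to 6, a 3.58-fold difference (log2 -1.84, SE 0.26, limma adjusted p = 0.000211). Tbx22 averaged 6.82 and 8.68 in the same order (log2 -1.86, SE 0.58, limma adjusted p = 0.0312), and Mn1 9.77 and 10.54 (log2 -0.77, SE 0.21, limma adjusted p = 0.0155). The same contrast gave -0.65 for Barx1 (limma adjusted p = 0.107), 0.58 for Meox1 (adjusted p = 0.186) and 0.37 for Hic1 (adjusted p = 0.242). In control arrays of either region the sets gave 0 calls over all genes (0%) in limma, with 1397 and 1738 genes at an unadjusted p under 0.05, so the contrast was seen past the threshold in mutants only, and the difference between mutants and controls was not tested. Meox2 differed by 0.00 between the sets of control posterior arrays and by -0.04 between those of control anterior arrays. In control anterior arrays Tbx22 differed by 1.25 (limma adjusted p = 0.516) and Mn1 by 0.49 (adjusted p = 0.481), both higher in arrays 1 to 3. Control posterior arrays gave -0.05 for Tbx22 (limma adjusted p = 0.995) and 0.37 for Mn1 (adjusted p = 0.736). The Tbx22 call ended without mutant array 1 (-1.14, adjusted p = 0.103), 5 (-1.79, adjusted p = 0.0796) or 6 (-1.43, adjusted p = 0.139), and that of Mn1 without mutant array 6 (-0.58, adjusted p = 0.0826), all in limma.

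Against the 6 control posterior arrays, mutant arrays 1 to 3 alone gave calls for 5 of the 6 genes in limma, where 27.4% of all genes were called. Meox2 was at -1.58 (adjusted p = 1.37e-05), Tbx22 at -2.14 (adjusted p = 0.00703) and Barx1 at -0.94 (adjusted p = 0.00999), while Meox1 was at 0.81 (adjusted p = 0.00481), Hic1 at 0.47 (adjusted p = 0.0429) and Mn1 at -0.04 (adjusted p = 0.901). Mutant arrays 4 to 6 alone gave 1 call of 6, Mn1 at 0.73 (limma adjusted p = 0.0322), where 18.2% of all genes were called. Meox2 was then at 0.27 (adjusted p = 0.426), on the other side of 0, Tbx22 at -0.28 (adjusted p = 0.749), Barx1 at -0.29 (adjusted p = 0.261), Meox1 at 0.23 (adjusted p = 0.576) and Hic1 at 0.10 (adjusted p = 0.76). Both fits use the same control arrays. With 4 sets of arrays, split by genotype and spike-in set, as a random block, no member was called for genotype, with adjusted p from 0.261 for Barx1 to 0.534 for Hic1 in limma. The part of the sets in these differences was not tested.

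**Figure D3:**
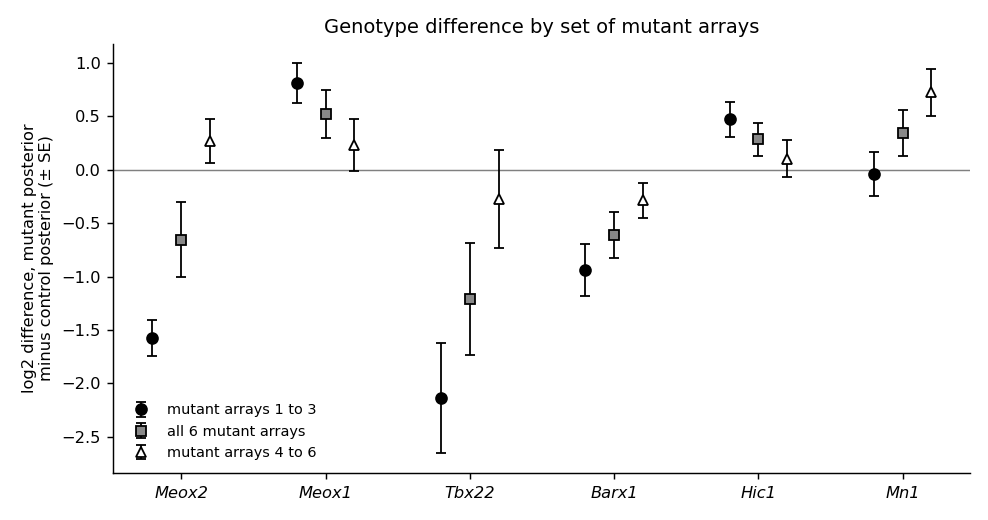
The vertical axis is the log2 difference of mutant posterior minus control posterior (± SE, limma), with mutant arrays 1 to 3 only, all 6 mutant arrays, and mutant arrays 4 to 6 only for each gene. Meox2 lies at -1.58, -0.65 and 0.27 and Tbx22 at -2.14, -1.21 and -0.28.

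Other palate and somite regulators give the background for these 6 genes. Of 9 measured anterior palate factors 5 were lower in control posterior than in control anterior palate and none was higher in limma, with a median difference of -0.63 where the median of all genes was -0.02. The homeobox genes Alx1 (-3.59) and Msx1 (-2.86) and the short stature gene Shox2 (-2.40) had the largest changes of that list. None of the 9 was called for genotype, with a median of 0.05, and the smallest p was that of the T-box gene Tbx3 (0.44, limma adjusted p = 0.114). Against control anterior arrays 1 of the 9 was higher and 4 were lower in the mutants, with Alx1 at -4.02 and Shox2 at -2.49.

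Of 14 palate mesenchyme factors without a fixed region 2 were lower and none higher for region, the forkhead gene Foxf1 (-0.69) and Sox5 (-0.76), with a list median of -0.31. For genotype 1 was higher, the SHH pathway factor Gli3 (0.39), and 1 lower, Foxf1 (-0.51), with a median of -0.10. Against control anterior arrays 1 was higher and 3 were lower in the mutants. The list mean read 7.67, 8.02, 7.93, 8.23, 8.52 and 8.84 in mutant arrays 1 to 6, against 8.21 to 8.47 in control posterior arrays. These mutant arrays stood in the same order as they did for Mn1.

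Genes that work beside the Meox factors in somites gave 1 higher and 1 lower call of 9 for region, Pax1 (1.33, limma adjusted p = 0.00667) and Pax3 (-1.46, limma adjusted p = 0.0371), with a median of 0.22. For genotype none was called, and the smallest p was that of Tcf15 (0.27, limma adjusted p = 0.227). Against control anterior arrays 5 were higher and 1 lower in the mutants, with the forkhead gene Foxc2 at 1.31 and Pax1 at 1.26. Of 9 measured relatives of Barx1, Tbx22 and Hic1 only the T-box gene Tbx15 was called for region, higher at 1.46 (limma adjusted p = 0.00152). Only Zbtb16, a zinc finger repressor like Hic1, was called for genotype, higher at 0.55 (limma adjusted p = 0.00362). Tbx15 (1.89), Barx2 (0.63) and Zbtb16 (0.32) were higher in mutants than in control anterior arrays.

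Kera, Cdh4, Lrrn1 and Ltbp2 had the patterns most like that of Meox2 over the 18 arrays, by mean absolute difference of mean-centred log2 values, at 0.505, 0.522, 0.586 and 0.661. Kera, a corneal and tendon proteoglycan, averaged 9.80 in mutant posterior, 9.57 in control posterior arrays and 6.54 in control anterior ones. For Tbx22 they were Nr2f1, Vstm2a, Foxd1 and Col8a1, at 0.482, 0.515, 0.544 and 0.568. Nr2f1, an orphan nuclear receptor, averaged 10.04 in mutant posterior, 10.96 in control posterior arrays and 9.72 in control anterior ones, and Foxd1, a forkhead factor, 9.15, 9.87 and 8.33 in the same order. Only Meox2 and Tbx22 spanned at least 2 log2 units, the range set for this search, and Meox1 fell just short of it.

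Markers of other cell types differed between the same groups. All 16 skeletal muscle genes were measured. Of these 15 were higher in control posterior than in control anterior palate, with a median difference of 3.71, and 2 were higher for genotype, Ckm (2.36) and Myf6 (1.55), with a median of 0.77. Against control anterior arrays all 16 were higher in the mutants. The muscle list mean read 11.74, 10.80, 10.60, 11.26, 10.17 and 8.96 in mutant arrays 1 to 6, against 9.03 to 10.3 in control posterior arrays and 5.42 to 7.50 in control anterior ones. Of 12 mesenchyme genes 1 was higher for region, Twist2 (0.78), and 2 for genotype, Dcn (0.88) and Col1a2 (0.47). Against control anterior arrays 6 were higher and 1 lower in the mutants. The mesenchyme list mean was 12.08 ± 0.40 in mutant posterior, 11.82 ± 0.16 in control posterior arrays and 11.70 ± 0.37 in control anterior ones (SD, n = 6 each), and differences relative to it are given after the other lists. For region and for genotype limma called none of the 12 genes of basal and simple epithelium, with medians of -0.24 and -0.45, and 6 were lower in mutants than in control anterior arrays.

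Of 10 tendon genes 2 were higher and 2 lower for region and 7 were higher for genotype, Tnmd by 1.40. Of 10 cartilage genes none was called for region and 2 were higher for genotype, Comp by 1.80 and Col11a2 by 1.23. Endothelial genes gave no call among 10 in any of the 3 comparisons in limma. Leukocyte genes gave 2 higher calls of 10 for region, and 1 higher and 2 lower for genotype. The higher one was Csf1r (0.53), and the lower ones were Cd52 (-1.17) and C1qb (-0.68). Of the 10 genotype differences 7 were above 0, with a list median of 0.17. Of 7 erythroid genes none was called for region and 2 were lower for genotype, Hbb-y at -2.93 and Hba-x at -1.40. Of 7 glial and neuronal genes none was called for region and 2 were higher for genotype, Ngfr by 0.68. Only 3 of the 7 genotype differences were above 0, with a list median of -0.25 where that of all genes was 0.04. The part of any of these cell types in the values of the 6 regulators was not tested.

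Relative to the mesenchyme list mean of each array, a scaling that moved the median of all genes to -0.13 for region, -0.22 for genotype and -0.36 for mutant posterior against control anterior, Meox2 differed by 2.77 for region (limma adjusted p = 5.77e-06) and by 1.85 between mutant posterior and control anterior arrays (adjusted p = 8.03e-05). On that scale Tbx22 differed by 1.81 for region (limma adjusted p = 0.0386). Hic1 differed by 0.57 for region and, in mutant posterior against control anterior arrays, by 0.59 (limma adjusted p = 0.082), and Meox1 by 0.56 (adjusted p = 0.161) in that comparison of mutant with anterior arrays. For genotype Meox2 was at -0.92 (limma adjusted p = 0.0701), Tbx22 at -1.47 (adjusted p = 0.0628) and Barx1 at -0.88 (adjusted p = 0.0507), and none of the 6 genes was called.

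Each gene was set against the muscle, mesenchyme and epithelium list means over the 6 arrays of each group, 54 relations in all. None passed after adjustment in the exact permutation test, where 13 had an unadjusted p under 0.05 and the smallest adjusted p, 0.075, was shared by 4 relations. Hic1 was higher in arrays with more muscle signal in the mutants (r = 0.969, exact permutation p = 0.00278, adjusted 0.075; rho = 0.943, p = 0.0167, adjusted 0.18) and in control posterior arrays (r = 0.944, exact permutation p = 0.00556, adjusted 0.075; rho = 0.943, p = 0.0167, adjusted 0.18). Without the 2 arrays farthest from the median muscle level r was 0.948 and 0.974. In control anterior arrays, where the muscle list was low, r was -0.441 (exact permutation p = 0.378, adjusted 0.6; rho = -0.429, p = 0.419, adjusted 0.596).

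Meox1 ran the same way, with r = 0.93 in the mutants (exact permutation p = 0.00417, adjusted 0.075; rho = 0.943, p = 0.0167, adjusted 0.18) and r = 0.90 in control posterior arrays (exact permutation p = 0.0139, adjusted 0.15; rho = 0.943, p = 0.0167, adjusted 0.18). Without the 2 farthest arrays r was 0.878 and 0.728. In control anterior arrays r for Meox1 was 0.288 (exact permutation p = 0.576, adjusted 0.662), where that of Hic1 was negative. Tbx22 ran against muscle in the mutants, with r = -0.89 (exact permutation p = 0.0292, adjusted 0.173; rho = -0.829, p = 0.0583, adjusted 0.263), and r was -0.625 without the 2 farthest arrays. The sign was the same in control posterior arrays, at r = -0.807 (exact permutation p = 0.075, adjusted 0.253), and in control anterior arrays, at r = -0.71 (exact permutation p = 0.135, adjusted 0.333). Without the 2 farthest arrays these were -0.981 and -0.321. For Meox2 in the mutants r was -0.796 (exact permutation p = 0.0444, adjusted 0.185; rho = -0.829, p = 0.0583, adjusted 0.263), and it was -0.258 without the 2 farthest arrays. In control posterior and control anterior arrays r for Meox2 was -0.387 and -0.026. For Mn1 in the mutants r was -0.872 (exact permutation p = 0.0264, adjusted 0.173; rho = -0.771, p = 0.103, adjusted 0.292), and -0.285 without the 2 farthest arrays. In control posterior arrays r for Mn1 had the other sign, at 0.260, and in control anterior arrays it was -0.449. Leaving out the farthest arrays also narrows the range of the list mean, so a smaller r does not show that a relation rests on them.

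Barx1 ran against the epithelium list mean in control posterior arrays, with r = -0.961 (exact permutation p = 0.00417, adjusted 0.075; rho = -0.943, p = 0.0167, adjusted 0.18), and r was -0.751 without the 2 farthest arrays. In the mutants r had the other sign, at 0.884 (exact permutation p = 0.0958, adjusted 0.284; rho = 0.486, p = 0.356, adjusted 0.549), and it was -0.007 without the 2 farthest arrays. Against the mesenchyme list mean Mn1 had r = 0.73 in the mutants (exact permutation p = 0.1, adjusted 0.284; rho = 0.771, p = 0.103, adjusted 0.292), 0.898 in control posterior arrays (exact permutation p = 0.0417, adjusted 0.185; rho = 0.886, p = 0.0333, adjusted 0.257) and 0.894 in control anterior arrays (exact permutation p = 0.025, adjusted 0.173; rho = 0.771, p = 0.103, adjusted 0.292). Without the 2 farthest arrays r was 0.506 in the mutants, 0.933 in control posterior arrays and 0.635 in control anterior ones. The other 3 relations with an unadjusted p under 0.05 were negative and with the epithelium list. Meox2 had r = -0.82 in control anterior arrays (exact permutation p = 0.025, adjusted 0.173; rho = -0.829, p = 0.0583, adjusted 0.263), and -0.973 without the 2 farthest arrays. Hic1 had r = -0.845 there (exact permutation p = 0.0319, adjusted 0.173; rho = -0.771, p = 0.103, adjusted 0.292), and -0.85 without them. Meox1 had r = -0.86 in control posterior arrays (exact permutation p = 0.0431, adjusted 0.185; rho = -0.657, p = 0.175, adjusted 0.394), and -0.21 without the 2 farthest arrays. Each spike-in set holds 3 arrays of a group, too few for a value within sets.

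**Figure D4:**
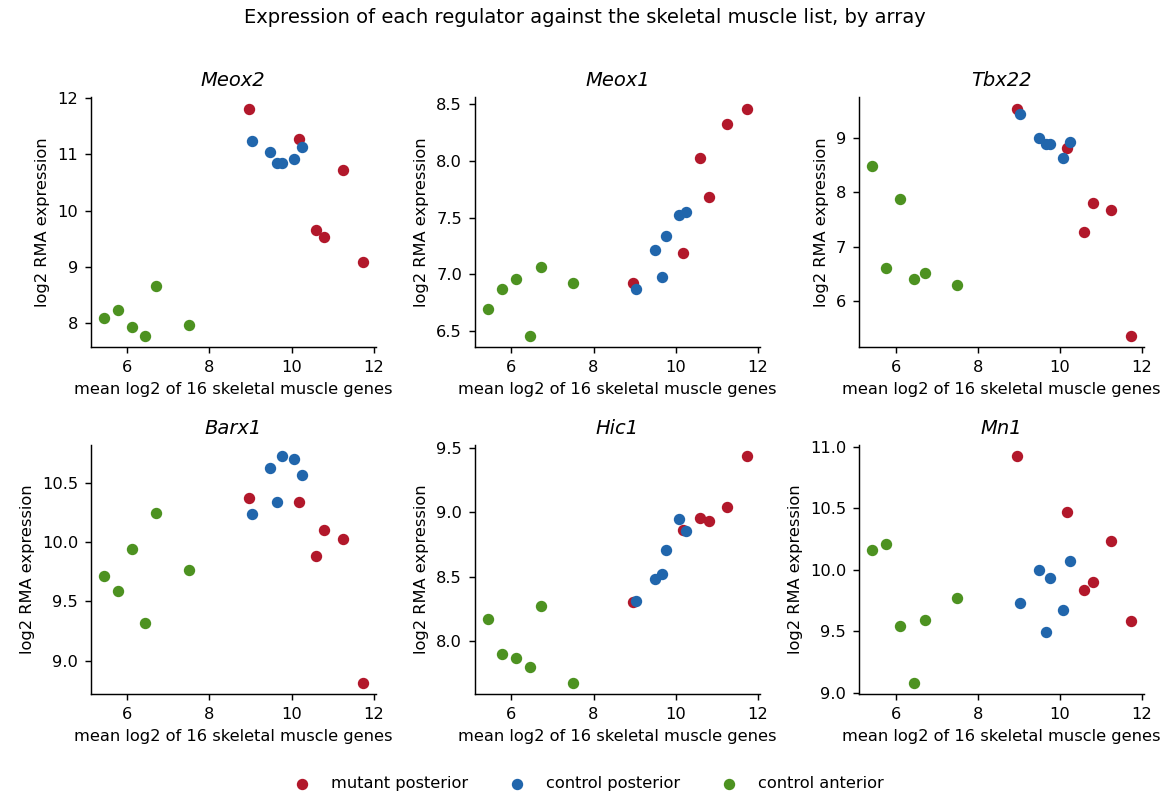
Each panel plots log2 RMA expression of 1 gene (vertical axis) against the mean log2 level of 16 skeletal muscle genes (horizontal axis), 1 point per array, coloured by group. In mutant and control posterior arrays Meox1 and Hic1 are higher where the muscle mean is higher, from Hic1 at 8.30 in the mutant array with the lowest muscle mean, 8.96, to 9.44 in the mutant array with the highest, 11.74.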

How the data were processed

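Palate RNA was labelled with biotin and hybridised to 1-colour Affymetrix arrays, 6 per group, while the series design text gives 5 per group; all 18 arrays were used. The deposited values are log2 expression that the authors made with RMA, per the submitters' processing notes; its version is not given in the sources used here. Quantile normalisation within RMA hides shifts that nearly all genes share. Neither scanner files nor detection calls were used, and no pseudocount was needed. Array number limits the precision.

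Of 45101 probe sets, 64 were controls, 34958 had 1 symbol, 932 several and 9211 were unlisted in the platform annotation; 18033 Entrez numbers matched RefSeq (GRCm38.p6), and 0 symbols changed. The brightest probe set stood for a gene. Differences were tested 2-sided with limma 3.58.1 (lmFit, eBayes) in R 4.3.3 over 3 groups (15 residual degrees of freedom, no covariate), with Benjamini-Hochberg adjustment over all 18193 genes and a threshold of 0.05. The fit was tested on simulated data. Spike-in sets were compared in a fit with each group split into arrays 1 to 3 and 4 to 6. Exact permutation tests used Python 3.11.15 and scipy 1.17.1, and figures matplotlib 3.10.9. The random block used statmod 1.5.0.

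The 6 genes, the gene lists, the spike-in split and the tests were chosen with earlier results of these data known, so patterns already seen in them are not independent support. Named besides the 6 genes and Tgfbr2 were, for each gene spanning at least 2 log2 units, its 4 nearest named genes (predicted genes passed over), and in each list at most 3 called members, those of largest change, or where none was called the 1 of smallest p.

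Equal replicate numbers were checked for pairing. Deviations of control posterior and anterior arrays with equal numbers correlated at 0.111 to 0.430 across genes, over 0.1 in 6 of 6 pairs, which was taken as pairing; 3 of 6 arrays correlated best with their own number. This pairing comes from the data, not the labels, and equal numbers also share the spike-in set. Between mutant and control posterior arrays r was -0.222 to 0.157, over 0.1 in 2 of 6 pairs, and no pairing was taken. Alternatives were the mean of probe sets, every probe set, leaving out genes below the median level, 2 other scalings, a trended robust prior, array weights, the compared groups alone, replicate and set blocks, single sets, and leaving out each array. Replicate blocks, and the set block for region, were fitted to the compared groups alone.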

Additional observations from a re-analysis of the deposited data

Results flagged for a closer look

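Barx1 in mutant posterior palate had 1 array far from the other 5: array 1 read 8.81, against 9.88 to 10.4 in the others, with a gap of 0.685 of the group's range, above Dixon's 95% critical value for 6 samples. Chance flags about 1 group in 20, and 18 groups were examined. The same array had the lowest epithelial and the highest muscle marker mean of the mutants, and their part in the Barx1 value was not tested.

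Of the 6 genes, 3 differed between the mutant arrays with the 2 levels of hybridisation spike-ins. In limma, arrays 1 to 3 minus arrays 4 to 6 gave -1.84 for Meox2, -1.86 for Tbx22 and -0.77 for Mn1. Relative to the mesenchyme list mean the values were -1.28, -1.30 and -0.21, with adjusted p of 0.0573 for Tbx22 and 0.38 for Mn1, while Meox2 was still called. The labels name no sets, and the part of the spike-in sets was not tested.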

How the results depend on the processing

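For region, Meox2 was called under all 31 other settings run, while Tbx22 was lost in 19 and Hic1 in 3. The number of the 6 genes called for region was 3 as deposited and 5 with the replicate block or with the spike-in set as a block, and ran from 1, without control posterior array 6, to 4 when 1 array was left out. Mn1, near 0 for region, turned to -0.026 relative to the mesenchyme list and ran from -0.040, without control anterior array 5, to 0.19 when 1 array was left out. For genotype the count was 0 as deposited, 1 without dim genes (Barx1, adjusted p = 0.047), 1 with array weights (Mn1, 0.58, adjusted p = 0.0415), 5 with mutant arrays 1 to 3 only and 1 with 4 to 6 only, and 0 to 5 with 1 array left out. Mutant arrays 4 to 6 only turned Meox2 to 0.27, and 1 to 3 only turned Mn1 to -0.044. The replicate block changed no call of these genes for genotype. Mutant posterior against control anterior gave 3 calls, 1 relative to the mesenchyme list (Barx1 turned to -0.22), 5 with array weights, 5 without mutant array 1 and control anterior array 2, and 3 to 4 with 1 array left out. The mutant sets gave 3 calls, 1 with array weights, and 1 to 4 with 1 array left out. The difference of the region effect between sets gave 0 calls among these genes in each fit, where limma had 412 genes at an unadjusted p under 0.05. All p-values are limma's. The cause of these shifts was not tested. Counts over all genes under these settings follow for the 3 comparisons, and none is given for the other settings of the mutant sets.

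Over all genes, region gave 695 calls, 204 relative to the mesenchyme list, 3356 with array weights, 2151 with the 12 control arrays alone, 3156 with the replicate block, 3118 with the set block, 323 with control arrays 4 to 6 only and 389 to 1213 with 1 array left out. Genotype gave 2449 calls, 593 relative to the mesenchyme list, 1572 with the compared groups alone, 890 with the replicate block, 588 with the random set block, 4986 with mutant arrays 1 to 3 only, 261 and 1538 with control posterior arrays 1 to 3 and 4 to 6 only, 4835 among single probe sets and 1512 to 2735 with 1 array left out. Genotype also gave 2102 calls without dim genes, 3332 with array weights and 3318 with mutant arrays 4 to 6 only. Mutant posterior against control anterior gave 4942 calls, 2949 without dim genes, 3178 with the compared groups alone, 2165 with the replicate block, 2064 with the random set block, 10140 among single probe sets and 4130 to 5310 with 1 array left out. It gave 3736 relative to the mesenchyme list, 4976 with array weights and 4008 without mutant array 1 and control anterior array 2. Higher and lower calls were 309 and 386 for region as deposited, 299 and 515 after median centring and 117 and 87 relative to the mesenchyme list; for genotype 1407 and 1042, 892 and 1418, and 59 and 534; and against control anterior 2521 and 2421, 1638 and 3583, and 342 and 3394.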
